A study of Mus musculus with 2 samples.

Results

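DNA replication and G1/S genes are the genes whose products mark and license replication origins, unwind and copy DNA, supply nucleotides and drive cells from G1 into S phase. The list was chosen by gene name and holds 57 genes, of which 56 had a probe set naming that gene alone, among 18193 genes measured on the array. Chaf1a, the large subunit of chromatin assembly factor 1, is not analysed here. The 56 genes were compared between PGK12.1 cells after 15 days of embryoid body differentiation and the same cells kept undifferentiated, with 1 array for each. PGK12.1 is an embryonic stem cell line of female mouse blastocysts, from a 129 mother and a (129 X PGK)F1 father. In both groups culture began on embryonic fibroblast feeders in medium with leukemia inhibitory factor, and the feeders were removed by plating on gelatin before cells were collected or differentiated. Embryoid bodies hold several kinds of cells, and both arrays come from 1 cell line.

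Before a cell can copy its DNA, the origin recognition complex, CDC6 and CDT1 load the MCM helicase onto origins in G1. Kinases then help to turn the loaded helicase into an active fork in S phase, and E2F transcription factors are known to switch on many of the genes involved. Embryonic stem cells in culture are known for a short G1 phase and a high level of cyclin E activity, and their cycle generally lengthens as they differentiate.

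Neither condition was repeated, which leaves no replicate error and allows no test, so every difference below is described by its size. Values are signal intensities as deposited, and the log2 difference is log2(signal + 16) at day 15 minus that in undifferentiated cells. A gene is represented by its brightest probe set over both arrays and is called at least 2-fold lower or higher from the log2 difference, while each fold given is the quotient of the signals of the arrays. All 56 genes lay above the expression filter, a mean signal of about 36.5, so none was left out of the counts. Signals on the whole array ran from 0.0 to 17574.5 at day 15 and from 0.1 to 17939 in undifferentiated cells. The 10 markers of undifferentiated stem cells all lay above the filter, with a summed signal of 32699 at day 15 and 58213 in undifferentiated cells and none listed at 0. The 9 measured fibroblast and feeder markers summed to 33144 at day 15 and 467.6 in undifferentiated cells, where 4 of them lay below the brightest of 15 bacterial control probe sets without target (35.6). The 6 endoderm markers summed to 2651 at day 15 and 112.8 in undifferentiated cells, where 4 of them lay below that control bound. The 6 cardiac muscle markers summed to 2806 at day 15 and 280.1 in undifferentiated cells, where 2 lay below it. The 7 blood cell markers summed to 554.2 at day 15 and 256.1 in undifferentiated cells, with 4 below the bound at day 15 and 3 in undifferentiated cells. Of these 7, 4 were higher at day 15 and 3 lower (Gata1, Klf1 and Hbb-bh1). None of these markers was listed at 0.

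The replication and G1/S genes were lower at day 15 in 54 of 56 cases as deposited, mostly by less than 3-fold. Of the 56 genes, 54 had a log2 difference below 0, against 50.0% of 11960 genes above the filter. At least 2-fold lower were 23 of them (41.1%), against 8.41% of all genes, and 0 were at least 2-fold higher, against 16.5% of all genes. At least 1.5-fold lower were 40 of 56 (71.4%), against 21.0% of all genes. The median log2 difference was -0.92, with an interquartile range of -1.12 to -0.52, whereas the median of all genes was 0.0 and their interquartile range ran from -0.5 to 0.62. The summed signal of the 56 genes was 69068 at day 15 and 130329 in undifferentiated cells, a ratio of 0.53. Fewer cycling cells in the culture and less RNA per cell cannot be told apart in such a bulk sample. The stem cell markers moved by a like amount (ratio of summed signals 0.562, median log2 difference -1.08 over 10 genes), and the fibroblast, endoderm and cardiac markers moved the other way; the part of these markers in the difference of the replication genes was not tested.

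**Figure D1:**
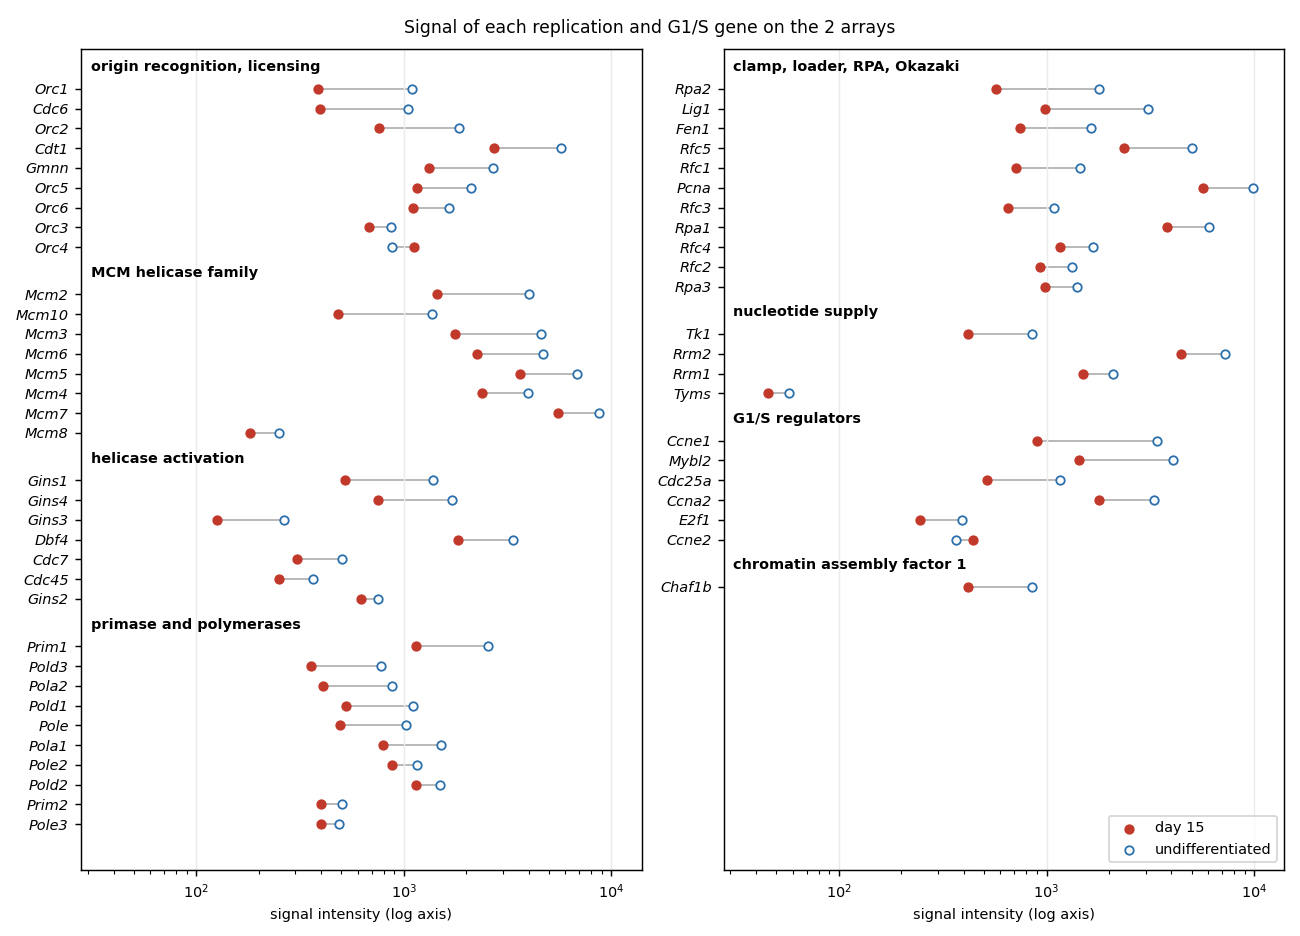
Signal intensity (log axis) of the 56 measured genes by role, with the day 15 array as filled red points and the undifferentiated array as open blue points, 1 array each. As deposited the red point lies left of the blue point for every gene except Orc4 and Ccne2, whose log2 differences turn to -0.04 and -0.11 on the control scaling.

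The number called at least 2-fold lower depended on where the line was drawn, since 7 genes lay within 0.05 of it on the log2 scale. Gins3, Tk1, Rfc1 and Chaf1b had signal ratios of 2.02 to 2.10 and fell just short of the call because of the pseudocount of 16, so that 27 genes were at least 2-fold lower by the signals alone. A pseudocount of 1 also gave 27 of 56 genes (48.2%), against 9.91% of all genes. Averaging all probe sets of a gene gave 14 of 55 genes (25.5%, against 6.56% of all genes), and scaling on the bacterial hybridization controls gave 39 of 56 (69.6%, against 18.8%). With probe sets averaged, Orc1, Orc2, Cdt1, Mcm6, Mcm10, Pola2, Prim1, Pold1, Pold3 and Cdc25a were no longer called, and Mcm5 was. These averages also take in probe sets below the filter, which drew some genes toward 0, as for Cdt1, Pola2 and Cdc25a. Among the brighter genes on the array, those above the 75th percentile of all probe sets, 9.79% were at least 2-fold lower, and 23 of the 53 replication genes in that range were (43.4%).

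The scaling of the arrays moved the share of genes called in each direction. As deposited, 66.3% of all genes past 2-fold were higher at day 15, against 54.6% after quantile normalization and 37.7% after scaling on the hybridization controls. Those scalings moved the median of all genes by -0.13 and -0.36. Relative to the median of all genes, the median of the replication genes lay at -0.92 as deposited, at -0.74 after quantile normalization and at -0.95 on the control scaling. In each of the 3 scalings 54 of 56 genes lay below the median of all genes. Orc4 and Ccne2 lay above it in each, although on the control scaling their own log2 differences were -0.04 and -0.11.

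**Figure D2:**
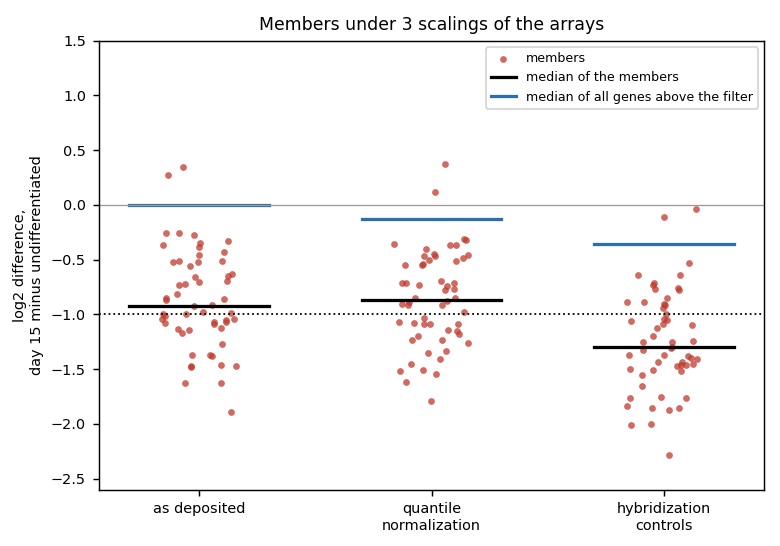
Log2 difference (day 15 minus undifferentiated) of the 56 genes under 3 scalings of the arrays, with a red point per gene, black bars for the median of these genes, blue bars for the median of all genes above the filter and a dotted line at 2-fold lower. The black bar less the blue bar is -0.92 as deposited, -0.74 after quantile normalization and -0.95 on the control scaling.

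Promoter sequences were examined because these genes were lower together. RefSeq promoter windows of assembly GRCm38.p6, from 250 bases before to 50 bases after each start site, were given for 47 of the 57 genes and were searched on both strands. The E2F element was searched as TTTCCCGC, TTTCGCGC, TTTGCCGC or TTTGGCGC. It was present for 17 of 47 genes (36.2%), against 4.83% of 9688 genes above the filter that had a window and 2.6% of all 27025 genes with a window. The cell cycle genes homology region (CHR), searched as TTTGAA or TTCGAA, is a short element known from promoters of genes that peak in G2 and mitosis. It was present for 9 of 47 replication genes (19.1%), against 16.3% of genes above the filter and 21.7% of all genes with a window. For mitosis genes the pattern ran the other way, with a CHR for 27 of 34 and an E2F element for 2 of 34. The CCAAT box (CCAAT) was present for 26 of 47 replication genes (55.3%), against 43.0% of genes above the filter and 41.1% of all genes with a window. A match is a run of letters and does not show binding. A missing match shows only that the listed strings are absent from the window.

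**Figure D3:**
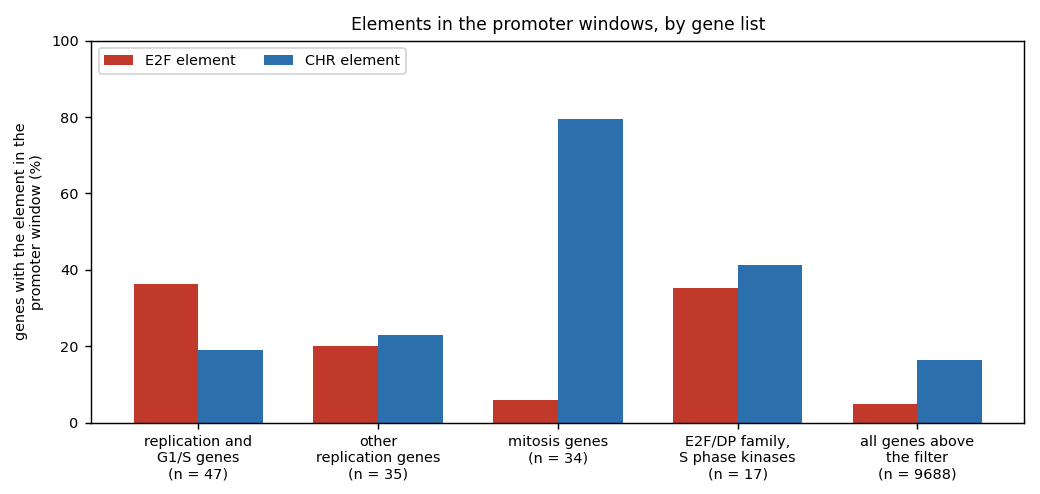
Share of genes (%) with an E2F element (red) or a CHR element (blue) in the promoter window, by gene list, where n is the number of genes with a window. The E2F element stands at 36.2% for the replication and G1/S genes and 4.83% for all genes above the filter, and the CHR element at 79.4% for mitosis genes.

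The E2F matches numbered 23 in the 17 genes, 16 of them within 100 bases of the start site, and they include overlapping matches on opposite strands in Mcm5 and Mcm6. The 17 genes with a match had a median log2 difference of -1.04, with 9 at least 2-fold lower, and the 29 measured genes without one had a median of -0.85, with 10 at least 2-fold lower. The ranges overlapped, from -1.63 to -0.35 with a match and from -1.89 to 0.35 without one. The difference between these groups was not tested.

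The 6 windows below belong to the genes with the largest differences among those with a match, and show how the element sits near the start site. They are read 5′ to 3′ on the gene's strand, with the E2F matches in capitals and the start site after the first 250 bases. The windows are chr7:13278576-13278875, plus strand, for Lig1; chr4:108579204-108579503, plus strand, for Orc1; and chr11:98907901-98908200, plus strand, for Cdc6. The others are chr1:20820263-20820562, minus strand, for Mcm3; chr9:109875329-109875628, plus strand, for Cdc25a; and chr7:100121453-100121752, minus strand, for Pold3.
Lig1: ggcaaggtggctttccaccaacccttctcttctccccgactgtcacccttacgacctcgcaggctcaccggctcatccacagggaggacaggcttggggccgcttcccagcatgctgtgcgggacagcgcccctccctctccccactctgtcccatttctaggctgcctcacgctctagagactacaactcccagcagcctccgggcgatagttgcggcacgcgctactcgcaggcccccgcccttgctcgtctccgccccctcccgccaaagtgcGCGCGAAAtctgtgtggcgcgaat
Orc1: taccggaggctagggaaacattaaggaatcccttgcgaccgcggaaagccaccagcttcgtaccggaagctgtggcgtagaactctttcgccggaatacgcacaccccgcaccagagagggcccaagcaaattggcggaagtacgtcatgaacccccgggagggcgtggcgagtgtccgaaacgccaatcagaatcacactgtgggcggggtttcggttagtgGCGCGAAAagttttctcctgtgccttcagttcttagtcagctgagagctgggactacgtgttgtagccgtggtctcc
Cdc6: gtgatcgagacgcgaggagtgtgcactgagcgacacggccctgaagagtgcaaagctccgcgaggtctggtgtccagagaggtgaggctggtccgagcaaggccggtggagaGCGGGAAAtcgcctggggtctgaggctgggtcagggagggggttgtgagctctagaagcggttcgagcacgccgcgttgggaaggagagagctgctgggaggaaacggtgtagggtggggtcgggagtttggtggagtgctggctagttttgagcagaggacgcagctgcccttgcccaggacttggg
Mcm3: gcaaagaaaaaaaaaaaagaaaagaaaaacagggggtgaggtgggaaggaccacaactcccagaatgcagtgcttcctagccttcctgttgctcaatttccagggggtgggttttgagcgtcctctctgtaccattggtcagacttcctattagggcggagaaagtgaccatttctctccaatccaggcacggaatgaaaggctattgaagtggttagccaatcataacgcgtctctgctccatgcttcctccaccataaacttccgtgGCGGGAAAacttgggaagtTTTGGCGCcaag
Cdc25a: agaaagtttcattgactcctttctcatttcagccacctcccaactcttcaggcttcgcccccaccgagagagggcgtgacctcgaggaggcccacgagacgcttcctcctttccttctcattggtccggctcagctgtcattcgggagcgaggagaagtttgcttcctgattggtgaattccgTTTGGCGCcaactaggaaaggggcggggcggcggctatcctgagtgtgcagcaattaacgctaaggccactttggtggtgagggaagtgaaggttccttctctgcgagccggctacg
Pold3: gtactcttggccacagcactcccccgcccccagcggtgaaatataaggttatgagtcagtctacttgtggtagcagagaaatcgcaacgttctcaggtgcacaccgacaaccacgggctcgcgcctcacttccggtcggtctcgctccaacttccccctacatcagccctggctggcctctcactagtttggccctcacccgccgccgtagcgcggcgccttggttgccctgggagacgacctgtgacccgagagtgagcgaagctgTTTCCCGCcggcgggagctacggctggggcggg

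Counted from the start site as base 1, with negative positions before it, the match began at -27 in Orc1, at -67 in Cdc25a and at -138 in Cdc6. It began at 27 in Lig1 and at 18 in Pold3, and Mcm3 had a pair of matches at 20 and 39. The 6 genes are all among the 23 called at least 2-fold lower, which follows from their choice by the size of the difference.

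Origin recognition and licensing genes ranged from more than 2-fold lower to slightly higher as deposited. Of 9 genes 5 were at least 2-fold lower, against 8.41% of all genes, and the median log2 difference was -1.01. Orc1, the large ATP-binding subunit of the origin recognition complex whose promoter is shown above, read 387.1 at day 15 and 1096 in undifferentiated cells (2.83-fold lower), though its second, dim probe set gave a log2 difference of -0.20. Orc2 read 760.2 at day 15 and 1854 in undifferentiated cells (2.44-fold lower). Orc5 (log2 difference -0.85) and Orc6 (-0.56) were lower by less than 2-fold. Orc3 read 679.2 at day 15 and 867.6 in undifferentiated cells, and Orc4 ran the other way as deposited, with 1116 at day 15 and 873.8 in undifferentiated cells (log2 difference 0.35, but -0.04 on the control scaling). The 6 subunits of 1 complex thus spread over 1.81 on the log2 scale by their brightest probe sets, and from -0.89 (Orc2) to 0.13 (Orc4) with the mean over probe sets.

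The loading factors were lower together with their inhibitor. Cdc6, an ATPase that joins the origin recognition complex to load MCM, read 395.2 at day 15 and 1048 in undifferentiated cells (2.65-fold lower). Cdt1, which brings MCM to the origin, read 2717 at day 15 and 5754 in undifferentiated cells (2.12-fold lower). Gmnn encodes geminin, which binds and blocks CDT1, and it read 1322 at day 15 and 2681 in undifferentiated cells (2.03-fold lower). By their brightest probe sets both the licensing factor and its inhibitor lay near 2-fold lower. The size is less settled for Cdt1, at -1.08 on the log2 scale by its brightest probe set and -1.61 by its second. With the mean over probe sets Cdt1 lay at -0.89. That mean takes in a further probe set below the filter, with 1.5 at day 15 and 1.3 in undifferentiated cells.

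All 8 genes of the MCM family were lower, 4 of them at least 2-fold, against 8.41% of all genes. The hexamer of Mcm2 to Mcm7 is the motor of the replicative helicase. Mcm2 read 1452 at day 15 and 4039 in undifferentiated cells (2.78-fold lower), and Mcm3 read 1763 at day 15 and 4583 in undifferentiated cells (2.60-fold lower). Mcm6 read 2264 at day 15 and 4680.1 in undifferentiated cells (2.07-fold lower). The other subunits of the hexamer were less than 2-fold lower by their brightest probe sets. Mcm5 read 3631 at day 15 and 6879 in undifferentiated cells (1.89-fold lower), Mcm4 read 2389 at day 15 and 3975 in undifferentiated cells (1.66-fold lower), and Mcm7 read 5535 at day 15 and 8686 in undifferentiated cells (1.57-fold lower). The 6 subunits spanned -1.47 to -0.65. The order is not settled for Mcm5, whose second bright probe set gave -1.83, or for Mcm7, whose other probe sets gave -1.18, -1.15 and -0.69. With the mean over probe sets Mcm5 lay at -1.34, Mcm3 at -1.29, Mcm2 at -1.27, Mcm7 at -0.92, Mcm6 at -0.84 and Mcm4 at -0.61. Mcm10, which acts in helicase activation and fork assembly, read 483.4 at day 15 and 1368 in undifferentiated cells (2.83-fold lower). Mcm8, which works with MCM9 in recombination outside the hexamer, read 182.1 at day 15 and 250.8 in undifferentiated cells. Its log2 difference of -0.43 was the smallest of the family as deposited. After quantile normalization Mcm8 lay at -0.71, past Mcm4 (-0.55) and Mcm7 (-0.54).

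Genes that turn the loaded helicase into an active one were lower in all 7 cases, with a median log2 difference of -0.87. The GINS complex and CDC45 bind MCM to form the active helicase. Gins1 read 523.6 at day 15 and 1391 in undifferentiated cells (2.66-fold lower), and Gins4 read 752.2 at day 15 and 1713 in undifferentiated cells (2.28-fold lower). Gins3, at 126.6 at day 15 and 265.6 in undifferentiated cells, lay just short of the call (log2 difference -0.98). By the brightest probe sets Gins2 differed least of the complex, with 620.1 at day 15 and 748.1 in undifferentiated cells (log2 difference -0.26). The second probe sets gave -0.75 for Gins2 and -0.54 for Gins3, so the order is not settled. Cdc45 read 249.5 at day 15 and 365.0 in undifferentiated cells (log2 difference -0.52). The kinase gene Cdc7 (-0.69) and its activating subunit gene Dbf4 (-0.87), which together phosphorylate MCM, were lower by less than 2-fold.

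All 10 primase and polymerase genes were lower, 5 of them at least 2-fold (against 8.41% of all genes), with a median log2 difference of -0.98. With the mean over probe sets the median was -0.61, where the means of Pola1, Pola2 and Prim2 take in probe sets below the filter. DNA polymerase alpha and primase start each new strand. Of that complex Prim1, the catalytic primase, read 1153 at day 15 and 2537 in undifferentiated cells (2.20-fold lower), and Pola2 read 407.6 at day 15 and 875.9 in undifferentiated cells (2.15-fold lower). The catalytic subunit gene Pola1 read 796.5 at day 15 and 1516 in undifferentiated cells (log2 difference -0.91), while the median over 418 X-linked genes above the filter was -0.18. Prim2, the large primase subunit, had a log2 difference of -0.33 by its brightest probe set and -0.85 by its second.

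Polymerase delta makes the lagging strand and polymerase epsilon the leading strand, and the catalytic subunit gene of each was just past 2-fold lower. Pold1, the catalytic subunit of delta, read 525.5 at day 15 and 1108 in undifferentiated cells (2.11-fold lower, with a log2 difference of -0.55 from its second probe set), and Pold3 read 357.7 at day 15 and 781.3 in undifferentiated cells (2.18-fold lower). Pold2 had a log2 difference of -0.37. Pole, the catalytic subunit of epsilon, read 491.5 at day 15 and 1026 in undifferentiated cells (2.09-fold lower), whereas Pole2 had a log2 difference of -0.38. The histone-fold subunit gene Pole3 had -0.27 by its brightest probe set and -0.89 by its second.

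Among the 11 genes of the sliding clamp, its loader, the single-strand binding protein and Okazaki fragment maturation, all were lower and 4 at least 2-fold. The share past 2-fold was 36.4%, against 8.41% of all genes. Lig1, the ligase that seals Okazaki fragments, read 985.5 at day 15 and 3082 in undifferentiated cells (3.13-fold lower). Fen1, the nuclease that trims the flaps before sealing, read 742.3 at day 15 and 1633 in undifferentiated cells (2.20-fold lower). Pcna, the sliding clamp that both enzymes bind, had the brightest probe set of the list in undifferentiated cells and read 5648 at day 15 and 9913 in undifferentiated cells (1.76-fold lower). So the enzymes that finish the lagging strand had larger differences on these arrays than the clamp.

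The single-strand binding complex RPA was uneven. Rpa2, its middle subunit, read 568.7 at day 15 and 1788 in undifferentiated cells (3.14-fold lower), and its second probe set gave nearly the same log2 difference (-1.63 and -1.68). Rpa1, the large subunit, read 3812 at day 15 and 6038 in undifferentiated cells (1.58-fold lower), with -0.66 and -0.67 from its probe sets. Rpa3, the small subunit, had a log2 difference of -0.51. The 5 subunits of the clamp loader spanned -1.07 to -0.51. Rfc5 was 2.11-fold lower with 2370 at day 15 and 4998 in undifferentiated cells, Rfc1, the large subunit, was 2.02-fold lower, and Rfc3 (-0.72), Rfc4 (-0.52) and Rfc2 (-0.51) differed less.

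Of the 4 nucleotide supply genes 0 were at least 2-fold lower, and their median log2 difference was -0.58, against -0.99 over 3 genes with the mean over probe sets. Tk1, the thymidine kinase of S phase, read 417.3 at day 15 and 849.8 in undifferentiated cells (log2 difference -0.999). The ribonucleotide reductase genes Rrm2, for the small subunit, and Rrm1, for the large subunit, had log2 differences of -0.70 and -0.46. The other 2 Rrm2 probe sets gave -0.84 and -1.43. Tyms, thymidylate synthase, could hardly be measured: its brightest probe set read 45.5 at day 15 and 57.4 in undifferentiated cells, close to the control bound of 35.6.

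The G1/S regulators held both the largest difference of the whole list and 1 of the 2 genes that were not lower. Ccne1, 1 of the 2 E-type cyclins that activate CDK2 for S phase entry, read 902.0 at day 15 and 3396 in undifferentiated cells (3.77-fold lower). Its paralog Ccne2 read 443.3 at day 15 and 365.1 in undifferentiated cells (log2 difference 0.27, but -0.11 on the control scaling). The paralogs thus had opposite directions as deposited, and lay 2.16 apart on the log2 scale. Mybl2, a transcription factor (B-MYB) of the G1/S and G2/M programme, read 1441 at day 15 and 4056 in undifferentiated cells (2.81-fold lower), and Cdc25a, a phosphatase that removes inhibitory marks from CDK2, read 516.1 at day 15 and 1157 in undifferentiated cells (2.24-fold lower). Ccna2, the S phase cyclin A, was 1.83-fold lower. E2f1, an activator of this gene programme, read 245.1 at day 15 and 389.4 in undifferentiated cells (log2 difference -0.63), but only -0.06 by its second probe set.

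Chaf1b, a subunit of the factor that deposits histones behind the fork, read 418.4 at day 15 and 849.4 in undifferentiated cells (log2 difference -0.99). It was the single measured gene of that factor.

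**Figure D4:**
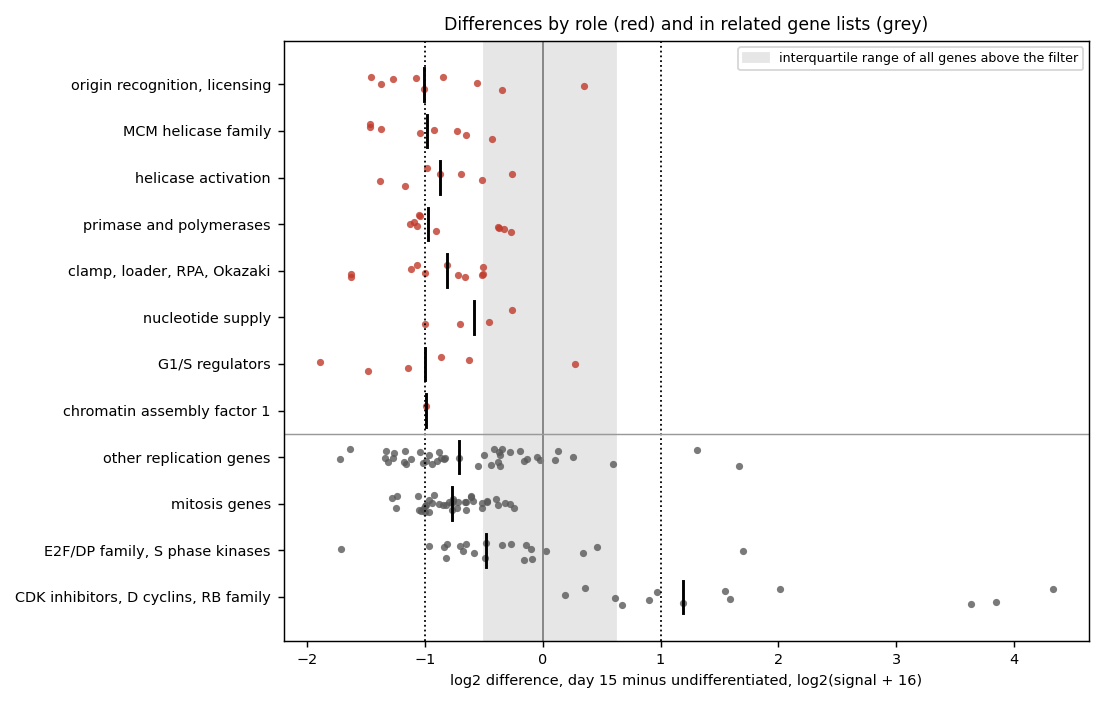
Log2 difference (day 15 minus undifferentiated) of each gene, by role for the 56 replication and G1/S genes (red) and for 4 related lists (grey), with black bars for medians, dotted lines at 2-fold and a grey band for the interquartile range of all genes above the filter. Medians of the roles lie between -1.01 and -0.58, and the CDK inhibitor list lies at 1.19 as deposited.

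Probe sets of the same gene give the only measure of spread for these genes that this pair of arrays allows, and it does not include variation between cultures. For 35 of the 56 genes several probe sets passed the filter, 84 in all. Their log2 differences varied within a gene with an SD of 0.34, against 0.53 over 5157 genes of the array with several probe sets. For 33 of the 35 genes every such probe set was below 0. Orc3, from -0.35 to 0.01, and Orc4, from -0.05 to 0.35, were the exceptions (2 of 35, or 5.71%, against 30.1% over the array). That share depends on how far the genes lie from 0, and the median was -0.92 for the replication genes and 0.0 for all genes above the filter. The size of the differences was less settled than their direction. For 7 genes every probe set was at least 2-fold lower, for 11 the probe sets lay on both sides of 2-fold, and for 17 none reached it. Mcm5 ranged from -1.83 to -0.92 and Mcm3 from -1.70 to -0.31, where the probe set at -0.31 was dim (65.4 at day 15 and 84.9 in undifferentiated cells). Ccne1 had probe sets at -1.89 and -1.79, while Ccne2 had 1 probe set, at 0.27, so no such spread can be given for Ccne2. The probe sets of Gins2, from -0.75 to -0.26, and of Gins3, from -0.98 to -0.54, overlapped.

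**Figure D5:**
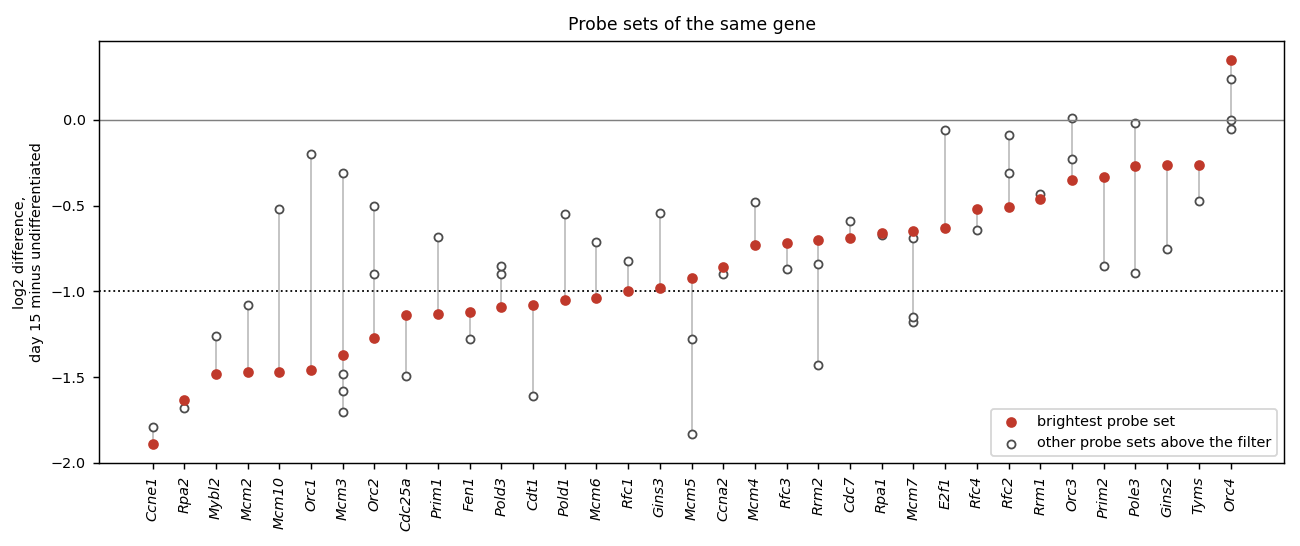
Log2 difference (day 15 minus undifferentiated) of each probe set above the filter for the 35 genes with several, ordered by the brightest probe set (red) with the others as open points, and a dotted line at 2-fold lower. The points of a gene lie on both sides of 0 for Orc3 and Orc4 alone, as deposited.

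Genes of the same process outside the list were mostly lower too, with some clear exceptions. Of 43 measured other replication genes 37 had a log2 difference below 0 and 13 (30.2%) were at least 2-fold lower, against 8.41% of all genes, with a median of -0.71. When the probe sets of a gene were averaged, 6 were at least 2-fold lower and the median was -0.41. Ticrr, which helps to load CDC45, read 221.6 at day 15 and 768.1 in undifferentiated cells (3.47-fold lower). Chtf18, of an alternative clamp loader, was 3.34-fold lower and Rif1, a regulator of replication timing, 2.55-fold lower. The 2 genes of 43 at least 2-fold higher, against 16.5% of all genes, were Pold4 and Top2b. Pold4, the smallest subunit of polymerase delta, read 267.5 at day 15 and 73.1 in undifferentiated cells (log2 difference 1.67), the opposite of Pold1 and Pold3. Top2b, the DNA topoisomerase II isoform that non-dividing cells also make, read 2242 at day 15 and 893.7 in undifferentiated cells (log2 difference 1.31), while Top2a, the isoform of proliferating cells, had a log2 difference of -0.94. On the control scaling the log2 difference of Pold4 was 1.30 and that of Top2b 0.92.

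Mitosis genes were lower throughout. All 39 measured mitosis genes had a log2 difference below 0, with a median of -0.77, and 7 (17.9%) were at least 2-fold lower, against 8.41% of all genes. The replication and G1/S genes had 23 of 56 (41.1%) at least 2-fold lower, but that contrast depended on the setting. On the control scaling 39 of 56 replication and G1/S genes and 27 of 39 mitosis genes were at least 2-fold lower, and at 1.5-fold as deposited 40 of 56 replication and G1/S genes and 30 of 39 mitosis genes were lower. The mitotic kinase genes Plk1 (2.46-fold lower) and Aurka (2.40-fold lower), the separase gene Espl1 (2.41-fold lower) and the condensin gene Ncapg (2.11-fold lower) had the largest differences. No mitosis gene reached the size of Ccne1, Rpa2 or Lig1, and the SD over genes was 0.27 for mitosis genes and 0.45 for the replication genes. No test of the difference between the lists can be made from these arrays.

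Of the E2F and DP family and S phase kinases, 17 of 21 (81.0%) were below 0, against 50.0% of all genes, with a median of -0.48. At least 2-fold lower was 1 gene (4.76%), a smaller share than the 8.41% of all genes. That gene was E2f4, which mainly represses, with 264.0 at day 15 and 903.0 in undifferentiated cells (3.42-fold lower). Tfdp1, the DP1 partner of E2F factors, had a log2 difference of -0.97 and Cdk2, the kinase that cyclin E activates, -0.84. Cdk6, which D-type cyclins activate, was the 1 gene of 21 at least 2-fold higher, against 16.5% of all genes, with 530.8 at day 15 and 152.5 in undifferentiated cells. All 13 CDK inhibitors, D cyclins and retinoblastoma family genes lay above 0 as deposited and 11 on the control scaling, with 7 at least 2-fold higher, against 16.5% of all genes, and a median of 1.19 (0.67 when the probe sets of a gene were averaged), led by Ccnd2, Cdkn2b, Cdkn1a and Cdkn1b.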

How the data were processed

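Total RNA from day 15 embryoid body cells and from undifferentiated PGK12.1 cells was labelled as biotinylated cRNA and hybridised to Affymetrix mouse arrays, per the labels' protocols. Each of the 45101 probe sets has 1 deposited signal intensity per array, on a linear scale, already scaled by the authors, since the mean after trimming 2% from each tail was 250 on both arrays. The summarising software is not given in the sources used, and no detection calls came with the values. After 64 control probe sets were set aside, 34945 probe sets named 1 gene through the platform annotation, 932 named several and 9160 were not listed. Names were updated with the RefSeq gene table (GRCm38.p6), through the gene identifier (34741 probe sets) or the symbol (143), and 61 stayed as listed.

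Signals were taken to log2(signal + 16), where the pseudocount of 16 damps dim genes. Each gene took its single-gene probe set with the highest mean over both arrays. The background was the 11960 genes whose mean reached the median over probe sets. With 1 array per group no test was run, no paired analysis was possible, and the number of arrays limits the precision. The call rule was tested on simulated data whose changes lay well past the 2-fold line. That checks the computation and not the calls of genes near the line. Roles, related lists, markers, motifs and the rule that every member may be named were written down with earlier results of these data known, and from the other lists the 4 genes with the largest difference were named. Top2a and Top2b were chosen after their values were seen. Proteins planned for display were not used here. The alternatives were other filters, pseudocounts, probe set rules, scalings and a 1.5-fold line. Python 3.11.15, numpy 2.4.6, pandas 2.3.3 and matplotlib 3.10.9 were used.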

Additional observations from a re-analysis of the deposited data

How the results depend on the processing

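No paired analysis was possible because each condition has 1 array. No called gene changed sign under any alternative, and 0 of the 56 genes were at least 2-fold higher in any of them. The count of members at least 2-fold lower (23) was 14 with the mean over probe sets, 39 on the control scaling and 40 with a 1.5-fold line, and lay between 19 and 27 in the other alternatives. The control scaling, on the bacterial hybridization controls, put the median over members at -1.30. On that scaling the medians were -1.40 for origin recognition and licensing, -1.36 for primase and polymerases, -1.37 for Chaf1b, -1.07 for other replication genes, -0.87 for the E2F and DP list, -1.15 for mitosis genes and -0.36 for all genes. Its counts at least 2-fold lower were 22 other replication genes, 8 of the E2F and DP list, 27 mitosis genes and 2248 of all genes. With the mean over probe sets those counts were 6 other replication genes and 4 mitosis genes. The E2F and DP list gave 2 with quantile normalization and 2 without probe sets named with a, s or x. The 1.5-fold line gave 22 other replication genes, 8 of the E2F and DP list, 30 mitosis genes, and 2512 lower and 3131 higher genes in all. Chaf1b lay at -1.02 with a pseudocount of 1, -0.92 with 64, -0.74 with the mean over probe sets and -1.07 with quantile normalization. The median of all genes was -0.02 with no filter, -0.12 with the filter at the 75th percentile, where 907 genes were higher, and -0.13 with quantile normalization. Orc1 and Pola2 with the mean over probe sets, and Cdt1, Mcm5, Mcm10 and E2f1 without the suffixed probe sets, moved by more than 0.53. Signal close to the control bound limits Tyms.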

Other observations

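The arrays differed in their spiked controls. The 6 probe sets of the Dap control read 0.4 to 18.1 on the day 15 array and 4158 to 15243 on the undifferentiated array, while the 6 of the Lys control read 5124 to 11560 on the day 15 array and 0.4 to 15.3 on the undifferentiated array. All 18 hybridization control probe sets read higher on the day 15 array, by 0.19 to 0.60 on the log2 scale. Their mean was 0.27 for Cre and 0.49 for BioB.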
